A study of Arabidopsis thaliana with 8 samples.

Results

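The nuclear genes for the light-harvesting antenna and for the photosystem subunits of Arabidopsis thaliana were followed across 4 groups of plants. The 45 genes were listed by locus tag and comprised 6 LHCA and 15 LHCB antenna genes, 10 PSB subunits of photosystem II (PSII), 12 PSA subunits of photosystem I (PSI) and the early light-induced protein genes ELIP1 and ELIP2. They were represented by 130 probes, out of 43603 gene probes and 25410 locus tags with a probe on the array. All 45 genes had a probe that was well above background in both genotypes and under both treatments and entered the test. The reaction-centre proteins themselves are encoded in the plastid, and 0 of 8 plastid genes listed for this purpose matched a probe, so the subunits described here are the nuclear-encoded ones.

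Photosynthetic light capture works in layers. Chlorophyll a/b-binding proteins absorb light and pass the energy inward, those named LHCA around PSI and those named LHCB around PSII, where LHCB1, LHCB2 and LHCB3 form the major trimeric antenna and LHCB4, LHCB5 and LHCB6 the minor antenna that links it to the core. The PSB and PSA subunits surround the reaction centres, for example the PSBO, PSBP and PSBQ proteins of the oxygen-evolving complex and the PSAD and PSAE proteins at the docking site of ferredoxin. ELIP1 and ELIP2 belong to the same protein superfamily, but they accumulate in the thylakoid under light stress and are regarded as photoprotective. Abscisic acid (ABA) is the hormone of the drought and salt response.

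The plants, aged 4 weeks, were wild-type Col-0 (WT) or T3 homozygous lines that overexpress ThbZIP1 (OE), a bZIP transcription factor from the salt-tolerant shrub Tamarix hispida. Plants of either genotype were treated for 3 h with water or with 10 µM ABA, which gives 4 groups of 2 arrays each, and the RNA came from pooled whole plants, root and shoot together. The number of OE lines and the promoter that drives ThbZIP1 are not given in the sources used here. Groups follow the sample titles and the genotype and treatment labels, while a further label field that names other genotypes and salt for the same arrays was not used.

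Values are log2 signals relative to the 75th percentile of their array, so that 0 is the level of that percentile and negative values lie below it. A gene was read from its brightest tested probe and was called at an adjusted p under 0.05 and a difference of at least 2-fold (limma, Benjamini-Hochberg adjustment over 31260 tested probes). Between 68.0% and 72.1% of gene probes were well above background on each array, and replicate arrays correlated with r between 0.979 and 0.986. All 4 OE arrays lay on 1 slide and the WT arrays on 3 others, scanned on another day, and the OE arrays were read with another version of the array design file, so genotype cannot be told apart from slide, scan day and design version, between which 208 probes carry a different systematic name. In WT, the water and ABA arrays lay on different slides too. In RNA of whole plants, fewer green cells and less RNA per green cell cannot be told apart. Of markers of other organs, those of the flower lay higher in OE on average, while those of the root went both ways. All 6 flower markers were well above background on the 4 OE arrays and on 1 WT array, against 1 to 3 of 6 on the other WT arrays, and their summed level ranged from 0.496 to 3.03 times the 75th percentile in OE and from 0.0302 to 0.334 in WT. Of 11 root markers, 5 to 9 were well above background on the OE arrays and 4 to 6 on the WT arrays, with summed levels from 7.87 to 20.4 in OE and from 3.13 to 13.0 in WT. Of the 7 root markers with a tested probe, 1 was called higher and 1 lower in OE in water, where 9.86% and 9.35% of all genes were. The higher one, COBL9, was well above background in OE in water only. Under ABA 4 of the 7 root markers lay higher in OE and 3 lower, with 0 called. Of the 6 flower markers, SEP3 was called higher in OE in water (6.41, adjusted p = 0.00945, limma) and 0 were called under ABA. Only the OE groups had SEP3 well above background on both arrays. The part of these organs in the genotype differences was not tested.

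The members with the greatest differences between genotypes were the ELIP genes, which were lower in OE with and without ABA. ELIP1 (AT3G22840) stood at 0.29 and 0.70 on the WT water arrays and at 1.82 and 1.48 on the WT ABA arrays. In OE it stood at -3.03 and -3.01 in water and at -2.66 on each of the ABA arrays. Every OE array therefore lay below every WT array, and the 2 arrays of each OE group nearly coincided. ELIP1 was 11.4-fold lower in OE in water (log2 fold change -3.51 ± 0.19 SE, adjusted p = 0.00145, limma) and 19.8-fold lower under ABA (-4.31 ± 0.19 SE, adjusted p = 0.000869). Over the 23 alternatives tried, its log2 fold change ran from -3.71 to -2.95 in water and from -4.48 to -3.39 under ABA. Several of these leave the fold change as it is, since ELIP1 has 1 probe and some change only the test. Its call was lost in 1 of them for either comparison, the methods' t-test after adjustment.

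ELIP2 (AT4G14690) showed the same order at a lower signal. Its levels were -1.81 and -1.59 in WT in water and -0.71 and -0.18 in WT under ABA, against -3.42 and -4.93 in OE in water and -3.51 and -4.33 in OE under ABA. The OE arrays again lay below all WT arrays, but the 2 OE arrays of a treatment differed more than those of ELIP1. ELIP2 was 5.57-fold lower in OE in water (log2 fold change -2.48 ± 0.53 SE, adjusted p = 0.0203) and 11.1-fold lower under ABA (-3.47 ± 0.53 SE, adjusted p = 0.0136). The size of these differences depended on the background correction. With normexp, described below, they were -1.60 in water and -1.83 under ABA and were not called (limma adjusted p = 0.219 and 0.184). In a fit of the 4 water arrays alone, the adjusted p in water was 0.0546. Its call in water was lost without OE in water replicate 2 (-1.72, adjusted p = 0.0651) and without WT in water replicate 1 or 2 (adjusted p = 0.063 and 0.0793), and without either WT array under ABA the difference under ABA had an adjusted p of 0.0623 or 0.0744. In both ELIP genes the 2 WT arrays under ABA lay above the 2 in water, by 1.15 ± 0.19 SE for ELIP1 (adjusted p = 0.0687) and by 1.25 ± 0.53 SE for ELIP2 (adjusted p = 0.321), which did not pass the test. The corresponding values in OE were 0.36 and 0.26 (adjusted p = 0.44 and 0.856), and the difference between the genotypes in the response to ABA did not pass either (interaction -0.80 and -1.0, adjusted p = 0.352 and 0.638).

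**Figure D1:**
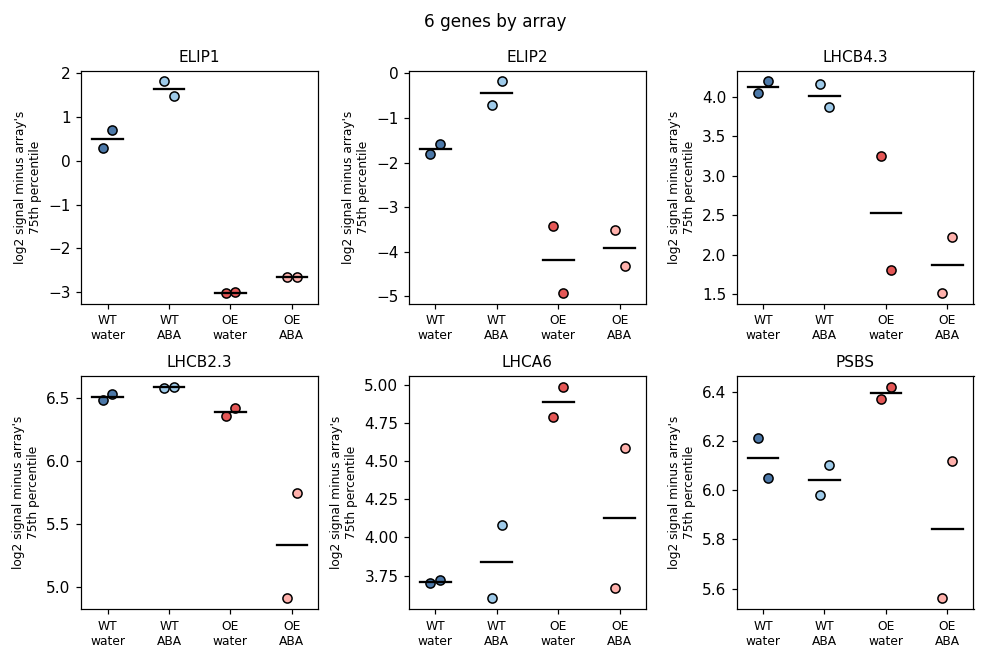
Log2 signal minus the array's 75th percentile (y axis) for 6 genes, with 1 point per array and a bar at the mean of the 2 arrays of each group (x axis). ELIP1 and ELIP2 lie lower on all 4 OE arrays than on any WT array, whereas LHCB2.3 lies within 6.36 to 6.59 in 3 groups and at 4.91 and 5.75 in OE under ABA.

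Under ABA, 4 of the 45 genes were called lower in OE than in WT and 0 higher, which is 2 antenna genes beside ELIP1 and ELIP2. Over all 19467 genes tested, 5.61% were called lower and 4.31% higher (9.93% in either direction). The 22 PSB and PSA subunits held 0 calls, with log2 differences between -0.32 and 0.48 and a median of 0.02. The 21 LHCA and LHCB genes had a median of 0.00 and a range from -2.16 to 0.29, and the median over all genes was 0.08. Both OE arrays lay below both WT arrays in 9 of the 45 genes and above them in 5, against 28.9% and 37.0% of all genes. With another background correction (normexp), which moved the median of all probes by 0.33, the share of called probes that were higher in OE was 54.2% instead of 36.7%, and 1 member, ELIP1, was called. In that setting 41 of 45 members lay lower in OE, against 24 of 45 with the 75th percentile of the processed signal. The array OE under ABA replicate 1 also decided the direction, since without it 9 of 45 lay lower, with medians of 0.13 for antenna genes and 0.27 for subunits, and without replicate 2 of that group 38 of 45 did, with medians of -0.17 and -0.20.

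LHCB4.3 (AT2G40100), an isoform of the minor antenna protein CP29, was one of these 2 antenna genes. It stood at 4.05 and 4.2 in WT in water, at 4.17 and 3.87 in WT under ABA, at 3.25 and 1.80 in OE in water and at 1.51 and 2.22 in OE under ABA. All 4 OE arrays thus lay below all WT arrays, with the OE water replicates far apart. Under ABA it was 4.46-fold lower in OE (log2 fold change -2.16 ± 0.49 SE, adjusted p = 0.0369). In water the difference was -1.60 ± 0.49 SE and did not pass the test (adjusted p = 0.0531), and it was -2.32 without OE in water replicate 1. It passed with quantile normalization or median scaling (adjusted p = 0.0494 and 0.0459) and over probes above background on all 8 arrays (0.0429). With slide as a random block the adjusted p was 0.0271. Genotype lies within slide and the correlation estimated within slides was negative (-0.163), so that fit cannot account for slide. The call under ABA was lost with normexp (adjusted p = 0.104), with no filter on dim probes (0.0636), with the replicate number as a block (0.0605) and without any 1 of 6 arrays, namely the 4 ABA arrays and the 2 WT water arrays (adjusted p between 0.0568 and 0.166). The isoforms LHCB4.1 and LHCB4.2 differed by -0.28 and -0.25 under ABA (adjusted p = 0.212 and 0.474).

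LHCB2.3 (AT3G27690), a gene of the major trimeric antenna, was the other. Its level was 6.48 and 6.53 in WT in water, 6.58 and 6.59 in WT under ABA, 6.36 and 6.42 in OE in water, and 4.91 and 5.75 in OE under ABA. The arrays of the first 3 groups lay close together and both OE arrays under ABA lay below them. The difference between genotypes under ABA was 2.39-fold (log2 fold change -1.26 ± 0.27 SE, adjusted p = 0.0316), against -0.11 in water (adjusted p = 0.77). The call under ABA was lost with normexp (-1.53, adjusted p = 0.117), with no filter on dim probes (0.0578) and in a fit of the 4 ABA arrays alone (0.093). The methods' t-test did not call it before or after adjustment. Within OE, the difference between ABA and water was -1.07 ± 0.27 SE and did not pass the test (adjusted p = 0.131, but 0.0422 without OE under ABA replicate 2), nor did the interaction (-1.15 ± 0.38 SE, adjusted p = 0.345). Without OE under ABA replicate 1 the genotype difference was -0.84, less than 2-fold, and its call was lost without any other array but OE under ABA replicate 2 (adjusted p between 0.0511 and 0.139).

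The other probes of the LHCB2 genes showed how far the reading depends on the probe. The dimmer LHCB2.3 probe gave 5.13 and 5.02 in WT under ABA and 2.65 and 3.86 in OE under ABA, a difference of -1.82 (adjusted p = 0.0308). Both LHCB2.1 probes were lower in OE under ABA, by 0.87 (adjusted p = 0.0493) and 1.06 (adjusted p = 0.0516), and neither was called. Among the 4 LHCB2.2 probes the 2 bright ones differed by 0.21 and -0.03 and the 2 dim ones by -1.13 (adjusted p = 0.0359) and -0.95 (adjusted p = 0.0982). LHCB2.1 and LHCB2.2 are close copies, as are the LHCB1 genes, LHB1B1 and LHB1B2, and pairs such as PSAD1 and PSAD2, so a probe assigned to one copy may also take up RNA of the other, and the values of such genes are uncertain. Over all 130 member probes, 6 were called lower in OE under ABA and 0 higher, against 6.52% and 3.78% of all tested probes.

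In water, LHCA6 was called higher in OE and ELIP1 and ELIP2 lower, out of 45 genes, whereas 9.86% of all genes were called higher and 9.35% lower (19.2% in all). LHCA6 (AT1G19150), which with LHCA5 (AT1G45474) joins the chloroplast NADH dehydrogenase-like complex to PSI, stood at 3.70 and 3.72 in WT and at 4.79 and 4.99 in OE in water. Under ABA it stood at 3.60 and 4.08 in WT and at 3.67 and 4.59 in OE, where the genotypes overlapped. The difference in water was 2.27-fold (log2 fold change 1.18 ± 0.33 SE, adjusted p = 0.0403) and lost its call without any of the 4 water arrays (adjusted p between 0.0996 and 0.162) or either WT array under ABA (adjusted p = 0.0569), and with each array scaled to its median (0.0615), normexp (0.149) or no filter on dim probes (0.0676). LHCA5 lay at 3.85, 3.46, 3.42 and 3.71 on the WT arrays and at 3.56, 3.68, 2.92 and 3.62 on the OE arrays, water before ABA, and the genotypes overlapped under both treatments (-0.03 in water and -0.29 under ABA, adjusted p = 0.945 and 0.485).

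**Figure D2:**
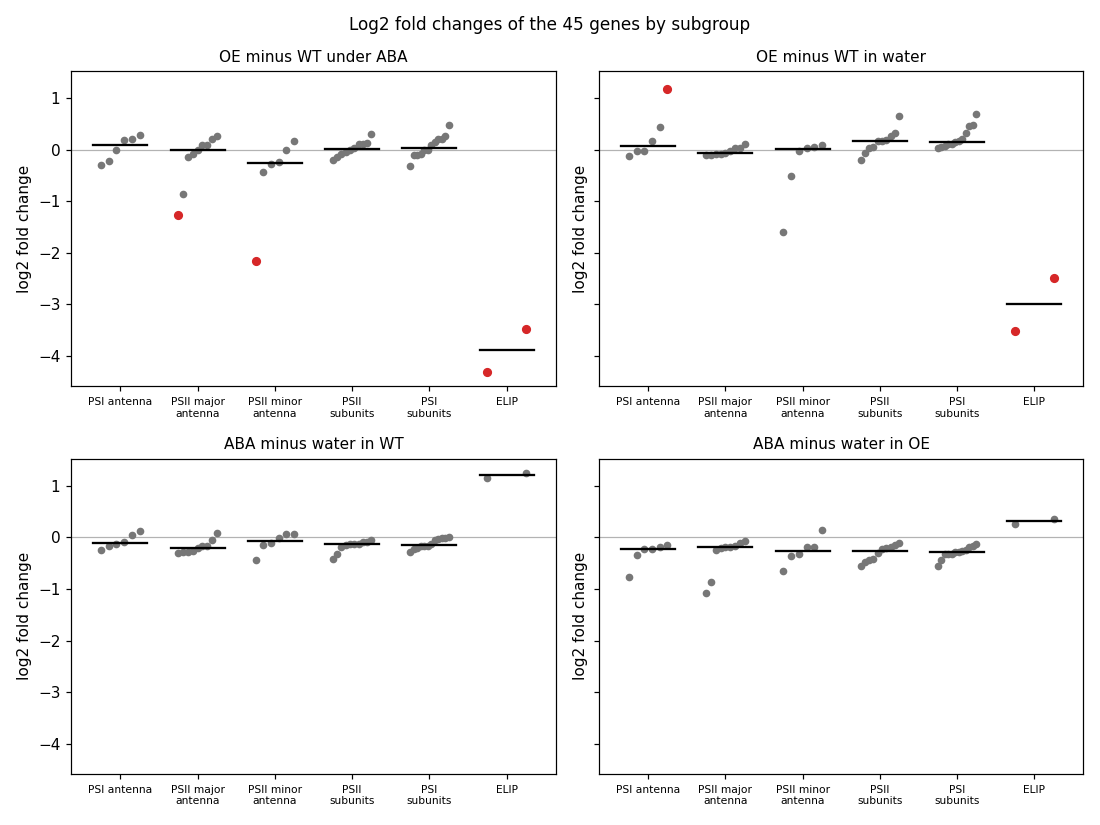
Log2 fold change (y axis) of each of the 45 genes by subgroup (x axis) in 4 comparisons. Points are genes, bars are subgroup medians and red points are called genes. Apart from ELIP1, ELIP2, LHCB4.3, LHCB2.3 and LHCA6 the points are grey, and in water all 12 PSI subunits lie above 0 (7 of 12 with each array scaled to its median).

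Antenna and subunit genes were set side by side by their medians, as a description without a test. In water the median difference of OE from WT was -0.03 over the 21 antenna genes and 0.16 over the 22 subunits, a gap of -0.191, and the median over all genes was 0.06. Of the subunits, 20 of 22 lay higher in OE, and 0 of them were called. These were 12 of 12 PSI subunits, from 0.04 to 0.69, and 8 of 10 PSII subunits, from -0.21 to 0.65 over the 10. In 15 of the 19 subunits with a value on all 4 water arrays both OE arrays lay above both WT arrays, as they did in 40.1% of all genes, and over all 41 members with 4 such values they lay above in 18 and below in 7 (34.0% of all genes). Of 20 such antenna genes 3 did so (LHCA1, LHCA2 and LHCA6). Without WT in water replicate 2, 19 subunits had a value and 16 of them lay higher in OE, against 18 of the same 19 with all arrays. With each array scaled to its median, which moved the median of all probes by -0.13 in this comparison, 13 of 22 lay higher. The gap between antenna and subunits lay between -0.129 and -0.201 over the alternatives in which it was recomputed.

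The subunits with the greatest difference in water were PSAE2 (AT2G20260), an isoform of the ferredoxin-docking subunit, and PSBQ1 (AT4G21280), of the oxygen-evolving complex. PSAE2 stood at 5.49 and 5.95 in WT and at 6.40 and 6.41 in OE in water (0.69 ± 0.26 SE, adjusted p = 0.0925). Under ABA it stood at 5.67 and 5.69 in WT and at 5.83 and 6.50 in OE (0.48 ± 0.26 SE, adjusted p = 0.243). PSBQ1 stood at 6.05 and 6.38 in WT and at 6.82 and 6.91 in OE in water (0.65 ± 0.24 SE, adjusted p = 0.082). Under ABA it stood at 6.07 and 6.13 in WT and at 6.09 and 6.71 in OE (0.30 ± 0.24 SE, adjusted p = 0.402). In both genes OE lay above WT on every water array, without passing the test.

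The array-by-array levels showed which arrays carried these gaps. As the median over genes of the log2 signal minus the gene's mean over 8 arrays, the antenna genes lay at 0.13 and 0.08 on the WT water arrays and at 0.06 and 0.15 on the OE water arrays, whereas the subunits lay at 0.04 and 0.02 in WT and at 0.17 and 0.23 in OE. Under ABA the antenna genes lay at -0.11 and -0.02 in WT and at -0.28 and 0.06 in OE, and the subunits at -0.17 and -0.08 in WT and at -0.33 and 0.15 in OE. Antenna minus subunits was 0.08, 0.06, 0.06 and 0.06 on the WT arrays and -0.11, -0.08, 0.05 and -0.09 on the OE arrays, water before ABA. The within-group spread of this measure was 0.052 (pooled SD). OE under ABA replicate 1 had the lowest level of both sets and was the 1 OE array on which antenna genes lay above subunits.

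**Figure D3:**
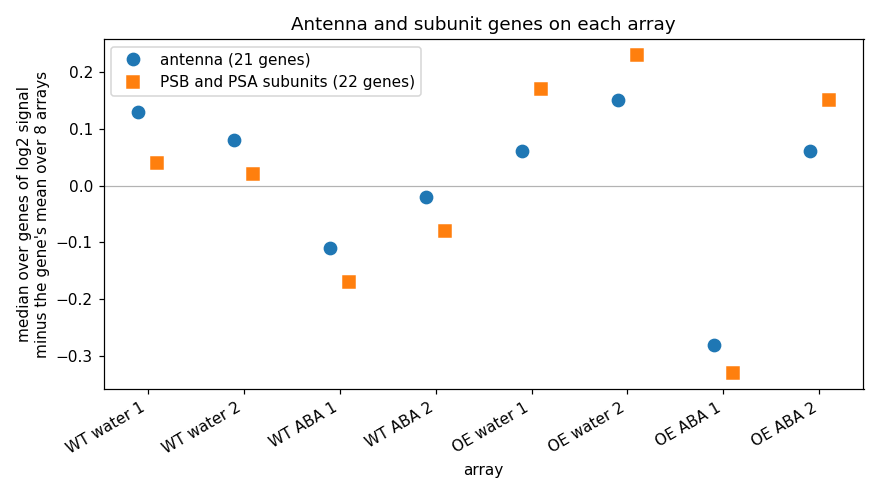
Median over genes of the log2 signal minus the gene's mean over the 8 arrays (y axis) on each array (x axis), for 21 antenna genes (circles) and 22 PSB and PSA subunits (squares). Circles lie above squares on the 4 WT arrays and on OE under ABA replicate 1, and below them on the other 3 OE arrays.

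Between ABA and water, 0 of the 45 genes were called in WT and 0 in OE, where 0.842% and 2.12% of all genes were called, and 0 had a called interaction, like 0 of 19467 genes. With limma's p left unadjusted, and the same fold, 1 member passed in each of these comparisons, ELIP1 in WT (6.11% of all genes) and LHCB2.3 in OE (6.83%) and in the interaction (6.45%), and the methods' t-test, also unadjusted, called 0 in WT (1.51%) and 0 in OE (2.31%). In WT, both ABA arrays lay below both water arrays in 21 of the 41 members with a value on all 4 arrays and above them in 4, against 31.9% and 21.1% of all genes. In OE they lay below in 19 of 45 and above in 1, against 27.6% and 21%. In OE, 42 of 45 members lay lower under ABA, with a median of -0.21 over antenna genes, -0.28 over subunits and -0.06 over all genes. After quantile normalization 36 of 45 did, with medians of -0.04 and -0.13, and with normexp the medians were -0.42 and -0.50. The size of these differences lay mainly with 1 array. In OE under ABA, 43 of 45 members were lower on replicate 1 than on replicate 2, by a median of 0.38, while 48.4% of all genes were. Without replicate 1 the medians were -0.07 for antenna genes and -0.03 for subunits, and 35 of 45 members still lay lower under ABA. Without replicate 2 the medians were -0.37 and -0.55, and 43 of 45 did.

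In WT, 37 of 45 members lay lower under ABA with the 75th percentile as the reference, with medians of -0.14 for antenna genes and -0.13 for subunits, but after quantile normalization 18 of 45 did and the medians were 0.04 and 0.02. No direction is given for WT on that account. The 75th percentile was itself higher on the WT ABA arrays (10.73 and 10.64 in log2 signal) than on the WT water arrays (10.23 and 10.09) and the OE arrays (10.09 to 10.36), and its part in these values was not tested. The member of each subgroup farthest from 0 in WT was LHCA1 (-0.24), LHB1B2 (-0.30), LHCB6 (-0.44), PSBO1 (-0.42) and PSAG (-0.28), with adjusted p between 0.278 and 0.564. LHCB6 (AT1G15820), of the minor antenna, stood at 8.47 and 8.23 in WT in water, 7.87 and 7.95 in WT under ABA, 8.36 and 8.43 in OE in water, and 7.90 and 8.24 in OE under ABA. LHCA1 stood at 8.11 and 7.94, 7.75 and 7.82, 8.14 and 8.24, and 7.80 and 8.15 in the same groups, and LHB1B2 at 7.83 and 7.69, 7.41 and 7.51, 7.69 and 7.90, and 7.65 and 7.80. Both ABA arrays lay below both water arrays in WT for these 3 genes. PSBO1 and PSAG were left with 1 WT water value, 8.24 and 7.64, because their spot on WT in water replicate 1 was an outlier, as it was for LHCA4 and PSAF. On the other arrays PSBO1 stood at 7.76 and 7.88 in WT under ABA, 7.97 and 8.08 in OE in water and 7.79 and 8.06 in OE under ABA, and PSAG at 7.34 and 7.40, 7.77 and 7.86, and 7.47 and 7.80.

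In OE, the members of each subgroup farthest from 0 under ABA were LHCA6 (-0.76), LHCB2.3 (-1.07), LHCB4.3 (-0.66), PSBS (-0.55) and PSAH2 (-0.56), with adjusted p between 0.131 and 0.561. PSBS (AT1G44575), the sensor of excess light in PSII, stood at 6.37 and 6.42 in OE in water and at 5.56 and 6.12 in OE under ABA, against 6.21, 6.05, 5.98 and 6.10 in WT. PSAH2 (AT1G52230), which takes part in docking the mobile antenna to PSI, stood at 4.93 and 5.09 in OE in water and at 4.0 and 4.89 in OE under ABA, against 4.47, 4.63, 4.41 and 4.67 in WT. Both OE arrays under ABA lay below both OE water arrays in these 2 genes, with replicate 1 lower than any WT array. LHCB7 (AT1G76570), a rarer LHCB protein, stood at 1.27, 0.69, 1.04 and 1.05 in WT and at 0.51, 0.41, 0.41 and 0.80 in OE, water before ABA. Its genotype differences were -0.52 in water and -0.44 under ABA (adjusted p = 0.136 and 0.235), with the arrays of the genotypes apart under both treatments.

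**Figure D4:**
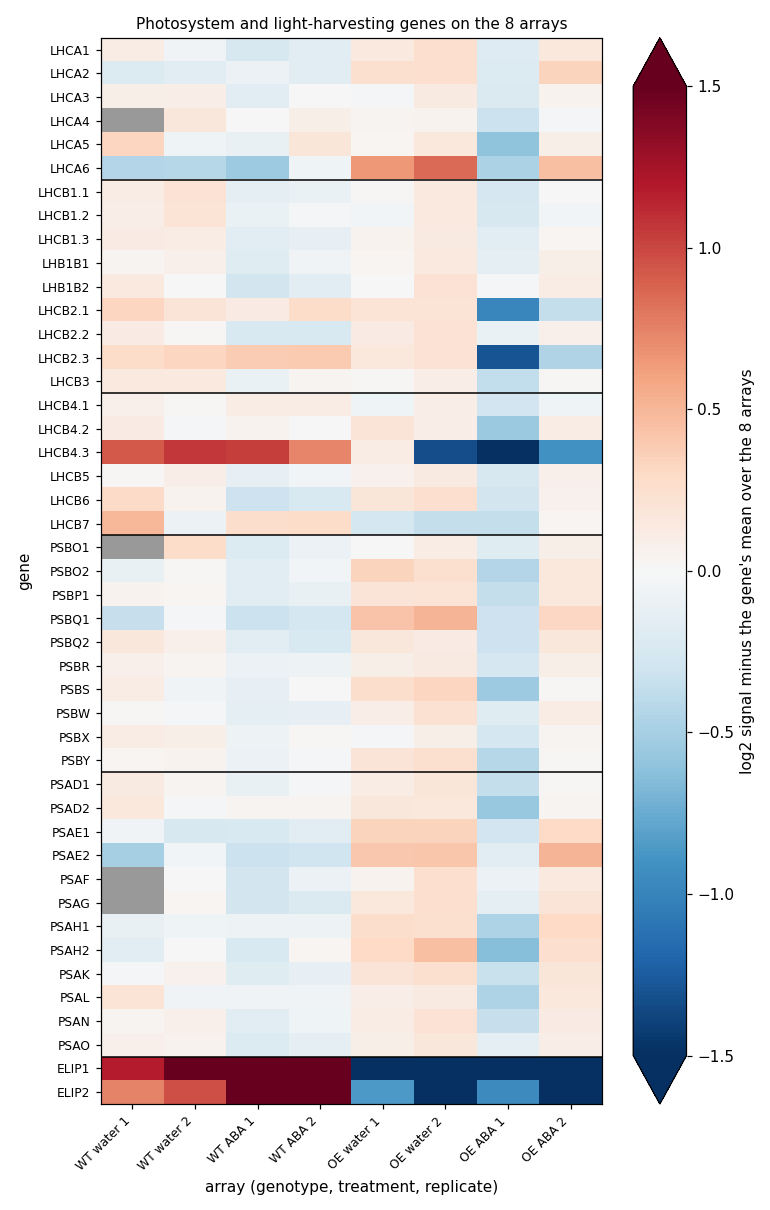
Log2 signal minus the gene's mean over the 8 arrays (colour, limited at -1.5 and 1.5) for the 45 genes (y axis, in the order PSI antenna, major and minor PSII antenna, PSII subunits, PSI subunits, ELIP) on each array (x axis). Grey cells are outlier spots left out, the column of OE under ABA replicate 1 is blue for most genes, and the ELIP rows separate the genotypes.

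Probes of 1 gene did not give 1 answer. In the 35 genes with more than 1 probe, the brightest and the dimmest probe were a median of 3.11 apart in log2 signal. For OE against WT under ABA the brightest probes had a median of 0.00 and the dimmest of -0.23, and the sign differed in 15 of 35 genes. In water the medians were 0.05 and 0.02, with 12 genes of different sign. For ABA against water they were -0.14 and 0.00 in WT, with 16 genes of different sign, and -0.23 and -0.32 in OE, with 2. Read from the dimmest probes, the antenna genes under ABA had a median of -0.44 and the subunits of -0.14 in OE against WT, where the brightest gave 0.00 and 0.02, and 5 members were called lower in place of 4. PSBS is an example, with 0.27 in water from its bright probe and -0.61 from its dim one. ELIP1, ELIP2, LHCB4.3 and LHCA6 have 1 probe each, so their values could not be compared between probes.

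**Figure D5:**
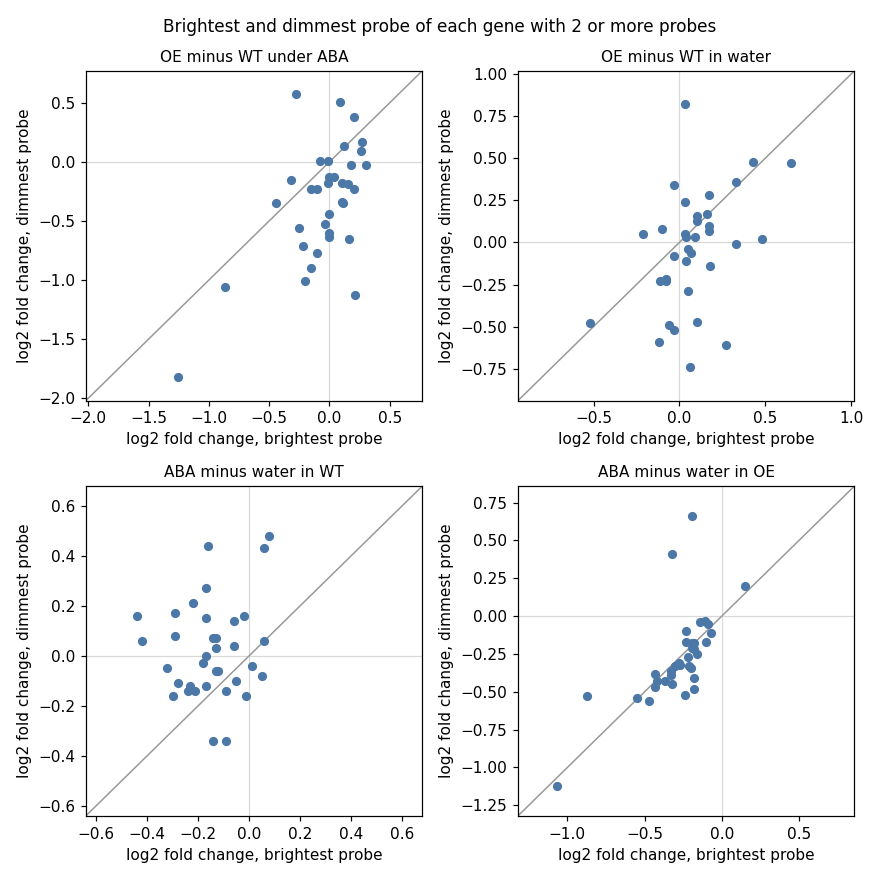
Log2 fold change of the dimmest probe (y axis) against that of the brightest probe (x axis) for the 35 genes with more than 1 probe, in 4 comparisons, with the line of equal values. Points spread widely around the line except for ABA against water in OE, where 33 of 35 genes have the same sign for both probes.

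Genes that serve the same apparatus were counted from lists. Of 14 genes of chlorophyll synthesis, 3 were called higher in OE in water, where 9.86% of all genes were, namely DVR, the divinyl reductase (2.09, adjusted p = 0.0098), CHLI2, of magnesium chelatase (1.2, adjusted p = 0.0337), and PORC, a protochlorophyllide oxidoreductase (1.14, adjusted p = 0.0346). CHLI2 and PORC lost their calls without any 1 of 6 arrays, those in water and those of WT under ABA (adjusted p between 0.0531 and 0.159), and DVR without OE in water replicate 2 (0.0572). With normexp all 3 lost their calls (adjusted p = 0.0547 for DVR, 0.166 for CHLI2 and 0.224 for PORC). CHLI2 and PORC also lost theirs with no filter on dim probes (0.0576 and 0.0592), and PORC with each array scaled to its median (0.0531). The median of the list was 0.39 in water. Under ABA 1 was called higher, beside 4.31% of all genes, PORB (1.2, adjusted p = 0.0377), and 1 lower, beside 5.61%, CAO, which makes chlorophyll b (-1.77, adjusted p = 0.0101). PORB kept its call in 8 of 22 alternatives and lost it without any of the 4 ABA arrays (adjusted p between 0.0534 and 0.153), and CAO lost it without either WT array under ABA (0.0598 and 0.0601). The list median under ABA was -0.24, and 0.12 without OE under ABA replicate 1. CAO stood at 3.68 and 3.76 in WT and at 1.61 and 2.27 in OE under ABA, and its call was also lost with normexp (-1.80, adjusted p = 0.0738). Within OE, 14 of 14 genes of chlorophyll synthesis lay lower under ABA (median -0.69), or 12 of 14 with a median of -0.33 without OE under ABA replicate 1, and within WT 12 of 14 lay higher (median 0.19), with 0 called in either. With each array scaled to its median, 8 of 14 lay higher in WT, and 8 of 14 did without WT under ABA replicate 2.

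Of 6 genes of chlorophyll breakdown, 2 were called lower in water, where 9.35% of all genes were, and 1 under ABA, where 5.61% were. NYE1, which takes the magnesium from chlorophyll, was lower in OE in water (-2.10, adjusted p = 0.00289) and under ABA (-2.07, adjusted p = 0.00428), and PPH, the pheophytinase, was lower in water (-1.29, adjusted p = 0.00726). NYE1 stood at 0.90, 0.72, 1.81 and 1.92 on the WT arrays and at -1.32, -1.27, -0.46 and 0.05 on the OE arrays, water before ABA, so that the genotypes did not overlap. The medians of the list were -0.55 in water and -0.45 under ABA, beside 0.06 and 0.08 over all genes. Of 6 genes of antenna import and state transitions, CPSRP54, of the particle that delivers antenna proteins to the thylakoid, was called higher in water (1.35, adjusted p = 0.0255), a call lost without OE in water replicate 2 or either WT water array (adjusted p between 0.0519 and 0.124). With normexp CPSRP54 was not called (1.31, adjusted p = 0.106). Over all genes 9.86% were called higher in water. The medians of the import and state transition list were 0.43 in water and 0.10 under ABA. Of 10 genes of electron transport and the ATP synthase, 15 of the Calvin cycle and 4 of other antenna-like proteins, 0 were called in any comparison, with medians of 0.31, 0.00 and 0.17 in water and -0.10, -0.11 and -0.49 under ABA. Without OE under ABA replicate 1 the values under ABA were 0.19, 0.12 and -0.26, and 0.45 for antenna import and state transitions and -0.19 for chlorophyll breakdown.

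Of 8 transcription factors that act on photosynthesis genes, 4 were called lower in OE under ABA, where 5.61% of all genes were, and 2 of them, LHY and CCA1, were lower in water as well, where 9.35% were. LHY, a morning factor of the circadian clock, stood at 0.50, 0.31, 1.32 and 1.37 on the WT arrays and at -3.75, -4.10, -4.67 and -5.10 on the OE arrays, water before ABA. The difference was -4.33 in water (adjusted p = 0.0013) and -6.23 under ABA (adjusted p = 0.000422). CCA1, its partner, differed by -2.07 (adjusted p = 0.00586) and -3.95 (adjusted p = 0.00221). HY5 and HYH, bZIP factors of light signalling, were lower under ABA by 1.35 and 2.74 (adjusted p = 0.0134 and 0.00377), and HYH also lay lower under ABA than in water within OE (-1.45, adjusted p = 0.0486), a call kept in 6 of 23 alternatives and lost under every other scaling tried, the replicate block (0.0687), slide as a random block (0.0511) and 7 of the 8 fits without 1 array. HY5 lost its call without either WT array under ABA (0.082 and 0.0565). GLK2, which promotes chloroplast development, was higher in OE in water (1.18, adjusted p = 0.0232), which was lost without either OE water array or WT in water replicate 2 (adjusted p between 0.0707 and 0.0997). GLK2 was not called with normexp either (1.23, adjusted p = 0.0949). GLK1 differed by 0.22 in water and 0.07 under ABA (adjusted p = 0.512 and 0.856). With normexp the genotype differences under ABA of LHY, HY5 and HYH were -3.58, -0.83 and -0.92. Their calls were lost in that setting (adjusted p = 0.0766, 0.187 and 0.232, limma), while CCA1 kept its call. The medians of the 8 factors were -0.74 in water and -1.43 under ABA, beside 0.06 and 0.08 over all genes, and PORC, GLK2, HY5 and the genotype difference of HYH are named here after their values were seen.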

How the data were processed

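The 8 scanner files give, per the file headers, Feature Extraction 10.7.3.1 output, in which the authors' processed intensity is background-subtracted and not normalized between arrays. The authors also deposited a table of log2 values of the same arrays, nearly alike in distribution (column medians 7.587 to 7.588), which served as an alternative. Control and outlier spots were left out (1148 spots on WT in water replicate 1, 6 to 24 elsewhere), repeat spots were averaged, and log2 processed signals were set relative to the 75th percentile of their array. A probe was tested if some group had it well above background on each of its 2 arrays, which 31260 probes met and 12343 did not. No spot was saturated, and the highest member signal was 82.6% of the scanner's saturation value. The part of signal level in the differences between bright and dim probes was not tested. One limma 3.58.1 fit (R 4.3.3, lmFit and eBayes) of 4 group means used 4 residual and 1.99 prior degrees of freedom, so the number of arrays limits the precision. The fit was also run on simulated data with independent noise and no shift of slides or arrays. That run cannot check calls between genotypes, which lie on different slides. Accessions of 34348 probes (78.8%) matched a locus tag in the RefSeq table of assembly TAIR10.1. The design states 2 independent experiments with different plants. Named were ELIP1, ELIP2, PSBS, LHCA5, LHCA6, LHCB4.3, LHCB7, in each comparison the member of each subgroup farthest from 0, and called list genes. The members and lists were chosen with earlier results of these data known. Alternatives changed the scaling, background correction, dim-probe filter, probe, arrays, blocks, threshold and test. Normexp used the median spot signal, since the scanner files here hold no mean signal. Sequences are not shown, and coordinates are not used here.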

Additional observations from a re-analysis of the deposited data

Results flagged for a closer look

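Results are listed here when all arrays of one genotype moved one way with ABA and all arrays of the other moved the opposite way, or when the genotypes stood in opposite order with and without ABA. The difference itself was tested by the interaction in limma, and none of those below passed at an adjusted p under 0.05. LHCB2.3 lay higher under ABA on both WT arrays and lower on both OE arrays (interaction -1.15, adjusted p = 0.345). Its WT difference was only 0.08 (adjusted p = 0.915), and those of GUN4 and PETE1, listed below, were 0.14 and 0.15. Scaling each array to its median moved the median of all probes by -0.15 for ABA in WT. The direction in WT is therefore uncertain for these genes. It is uncertain as well for CHLH, PORC, OHP1 and GLK2, listed below, whose WT arrays lay close together. Their highest water and lowest ABA values in WT were 6.06 and 6.11, 3.47 and 3.56, 4.14 and 4.28, and 2.56 and 2.70. PSAD2, a ferredoxin-docking subunit, lay higher in OE in water and lower under ABA (interaction -0.42, adjusted p = 0.626), at 6.38 and 6.19 in WT and 6.39 and 6.38 in OE in water and at 6.27 and 6.27 in WT and 5.65 and 6.26 in OE under ABA. The other genes are from the lists of chlorophyll synthesis, electron transport, antenna-like proteins and transcription factors. Those that lay higher under ABA on both WT arrays and lower on both OE arrays were PORC (-1.08, adjusted p = 0.401), DVR (-1.40, adjusted p = 0.356), CAO (-1.37, adjusted p = 0.256), GUN4 (-1.19, adjusted p = 0.278), CHLH (-0.96, adjusted p = 0.395), PETE1 (-0.73, adjusted p = 0.478), OHP1 (-0.95, adjusted p = 0.356), GLK2 (-1.49, adjusted p = 0.261), HYH (-2.03, adjusted p = 0.175), GNC (-1.72, adjusted p = 0.238), CCA1 (-1.88, adjusted p = 0.205) and LHY (-1.89, adjusted p = 0.155). GUN4, CHLH, OHP1, GNC, GLK2 and LIL3.2 (-0.49, adjusted p = 0.446) lay higher in OE than in WT in water and lower under ABA, GLK2 by a margin smaller than the last digit, with 1 array of each genotype at 2.70 under ABA. Groups of 2 arrays do not allow a test of outlying arrays.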

How the results depend on the processing

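Of 199 alternative values of the counts and the antenna-minus-subunit medians, 164 stayed within 1.5 times the count or within the array spread of 0.052. Under ABA, the 4 members called between genotypes were 1 with normexp, 2 with no filter on dim probes, and 2 and 0 by the methods' t-test before and after adjustment. In water, the 3 called were 1 with normexp and 1 and 0 by that test, and with median scaling they were 3 lower and 0 higher, LHCB4.3 in place of LHCA6. Between ABA and water, 1 member was called in WT in place of 0 with slide as a random block or at an unadjusted p, and 1 in OE and 1 in the interaction at an unadjusted p. The WT water and ABA arrays lay on different slides and the correlation within slides was negative (-0.163), so the slide block cannot account for slide in WT. Leaving out each array gave 1 to 4 members under ABA, 1 to 3 in water and 0 to 1 for ABA in OE, with a lone array assumed to vary like the others. The methods' t-test was not run for the interaction.

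Antenna minus subunits was -0.022 for OE against WT under ABA, but -0.299 with the dimmest probes and between -0.133 and 0.022 without 1 array. In water it was -0.191, and -0.129 with normexp. For ABA in WT it was -0.006, but 0.068 with the median over probes, 0.134 with the dimmest probes and -0.084 to 0.01 without 1 array. For ABA in OE it was 0.075, and reversed with the dimmest probes (-0.014) and without OE under ABA replicate 1 (-0.041, up to 0.182 without replicate 2). For the interaction it was 0.089, with 0.151 under normexp, 0.155 over probes above background on all 8 arrays, -0.066 with the dimmest probes and -0.004 to 0.173 without 1 array. The causes were not tested. The dimmest probes were chosen as an alternative after seeing the data.

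Normexp moved the median of all probes by 0.33 (OE against WT under ABA), 0.27 (ABA in OE) and 0.30 (interaction), and the share of called probes that were higher from 36.7% to 54.2%, from 82.9% to 97.4% for ABA in OE and from 68.5% to 78.6% for ABA in WT. Scaling to the median moved that median by -0.13 in water and -0.15 for ABA in WT, where the share became 53%.

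Over all tested probes replicate numbers did not pair the arrays, with correlations of same-numbered deviations from -0.178 to 0.113. Members were lower on replicate 1 in 39 of 45 in WT under ABA (median -0.07) and 36 of 45 in OE in water (-0.07). The counts were 43 of 45 in OE under ABA (-0.38) and 19 of 41 in WT in water (0.02). Of all genes 46.3% to 52.1% were lower on replicate 1. A shift shared by the members of same-numbered arrays was not tested. With the replicate number as a block 3 members were called under ABA, LHCB4.3 being lost, 3 in water and 0 otherwise. Swapping the replicate numbers of the WT ABA arrays only, chosen after seeing the data, left 0 called for ABA in WT.

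Of 1341 recomputed log2 fold changes of named genes, 1162 kept direction and call, 137 lost a call, 10 gained one and 32 reversed. For OE against WT under ABA, PSBQ1 was -0.03 with its dimmest probe and -0.01 to 0.61 without 1 array, PSBS -0.48 to 0.09, LHCA5 -0.65 to 0.06 and LHCA6 -0.17 to 0.75. In water PSBS was -0.17 with the median over probes and -0.61 with its dimmest probe, and LHCA5 0.13 with normexp and -0.22 to 0.17 without 1 array. For ABA in WT, the deposited table gave PSBS 0.02, LHCA5 0.01, LHCB6 0.05, PSAG 0.08 and PSBO1 0.58, where it holds a value for spots left out here, normexp gave PSBS 0.01 and LHCA5 0.12, scaling to the median gave LHCA6 -0.02 and LHCB7 -0.09, quantile normalization gave LHCB6 0.05, and the dimmest probes gave LHCB6 0.16 and PSBO1 0.06. Without 1 array, LHCA5 ran from -0.28 to 0.10, LHCA6 from -0.11 to 0.37, LHCB4.3 from -0.25 to 0.04 and LHCB7 from -0.23 to 0.35 in WT, and ELIP2 from -0.50 to 1.01, LHCB4.3 from -1.39 to 0.06 and LHCB7 from -0.05 to 0.34 in OE. HYH in OE was 0.00 with normexp.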
